A study of Bos taurus with 47 samples.

Results

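The muscle of newborn calves was studied in 16 libraries, those that the sample labels place at birth, out of 47 libraries in the series. They came from Longissimus thoracis muscle of F1 heifer calves, taken right after calving and before the calves had suckled. The dams were crossbred Angus heifers of the F0 generation. In the low gain group (LG, 8 libraries) the dams put on 0.28 kg per day from insemination until day 84 of gestation, and in the moderate gain group (MG, 8 libraries) they put on 0.79 kg per day. All dams were managed together after that period. No library of an unrestricted or otherwise untreated group enters here, and the difference is between the 2 rates of gain. Polyadenylated RNA was sequenced, and the values are counts of reads per gene. Libraries are named by their group and the number in their label, such as MG 17. The labels do not say that each number is a separate calf from a separate dam, and the tests set differences against the spread from library to library, which may be partly technical.

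The Longissimus is the long muscle along the back, and its chest portion is the source of rib cuts in beef. Muscle fibres form before birth in cattle, and growth after birth comes mainly from enlargement of existing fibres. Early gestation covers the first wave of fibre formation and the growth of the placenta, and maternal nutrition in that window is studied for lasting effects on offspring muscle. A whole piece of muscle holds fibres, connective tissue, fat cells, vessels, nerves and blood, so a lower level of a gene in bulk RNA can mean fewer cells of a type or less RNA per cell, and these cannot be told apart here.

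Genes are given by the identifiers of the deposited tables, because the files do not pair them with names and 0 identifiers matched the reference gene table. The labelled tissue was therefore not checked against muscle markers, and no pathway is described.

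Total counts ran from 13308433 to 22671822 per library, and a count of 3, used as the detection floor, corresponded to 0.122 to 0.217 CPM (counts per 1e+06 reads counted, with TMM scaling). Of 27607 identifiers, 21145 had a count in at least 1 newborn library and 13449 had one in all 16. Of the genes, 10165 were at or above 1 CPM throughout the 16 libraries. The libraries were alike in rank order, with Spearman's rho of 0.948 to 0.986 between pairs over the 12485 genes that passed the filter on low counts. This is a correlation across genes, which are not independent replicates.

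Reads in newborn muscle were concentrated in few genes. The 114 genes with a mean above 1000 CPM held 53.9% of all counts, and the 1045 genes between 100 and 1000 CPM held another 26.1%. The 9618 genes with counts but a mean under 1 CPM held 0.17%. CPM is not corrected for gene length, so these shares describe reads and not molecules. ENSBTAG00000046332 had the highest mean level, with means of 61870 ± 11620 CPM for LG and 61420 ± 20870 CPM for MG (SD over 8 libraries each). Its LG libraries ran from 43430 to 80430 CPM with a median of 60500, and its MG libraries from 13340 to 77080 with a median of 68220. The lowest value was that of MG 17, and the LG values lay inside the MG range except for the highest. ENSBTAG00000043561 came second, with means of 39640 ± 4844 CPM for LG and 37510 ± 7684 CPM for MG (SD over 8 libraries each). Its values ran from 33460 to 46670 CPM in LG and from 24150 to 48010 in MG, where MG 17 was again the lowest, and the groups overlapped. For the 10 most abundant genes, the LG to MG log2 fold change lay between -0.14 and 0.08, and none had an unadjusted p under 0.05 in edgeR's quasi-likelihood test.

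MG 17 stood apart from the other newborn libraries in how its reads were distributed. In it, 169 genes were needed to hold 50% of the counts. The range was 61 to 109 in LG and 61 to 90 in the other MG libraries, with a median of 77 over all 16. Its 10 most abundant genes held 17.3% of counts, where the 16 libraries, MG 17 included, had a mean of 23.7% ± 2.28 (SD). The next lowest library was LG 10 at 21.8%. After thinning every library to the smallest total, MG 17 had 17223 genes with a count. The LG libraries had 15864 to 16622 and the other MG libraries 16051 to 16384. MG 17 exceeded every other library by more than 4-fold in 29 of the genes tested, and each of the others did so in 0 to 4. The source of these values was not tested.

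**Figure D1:**
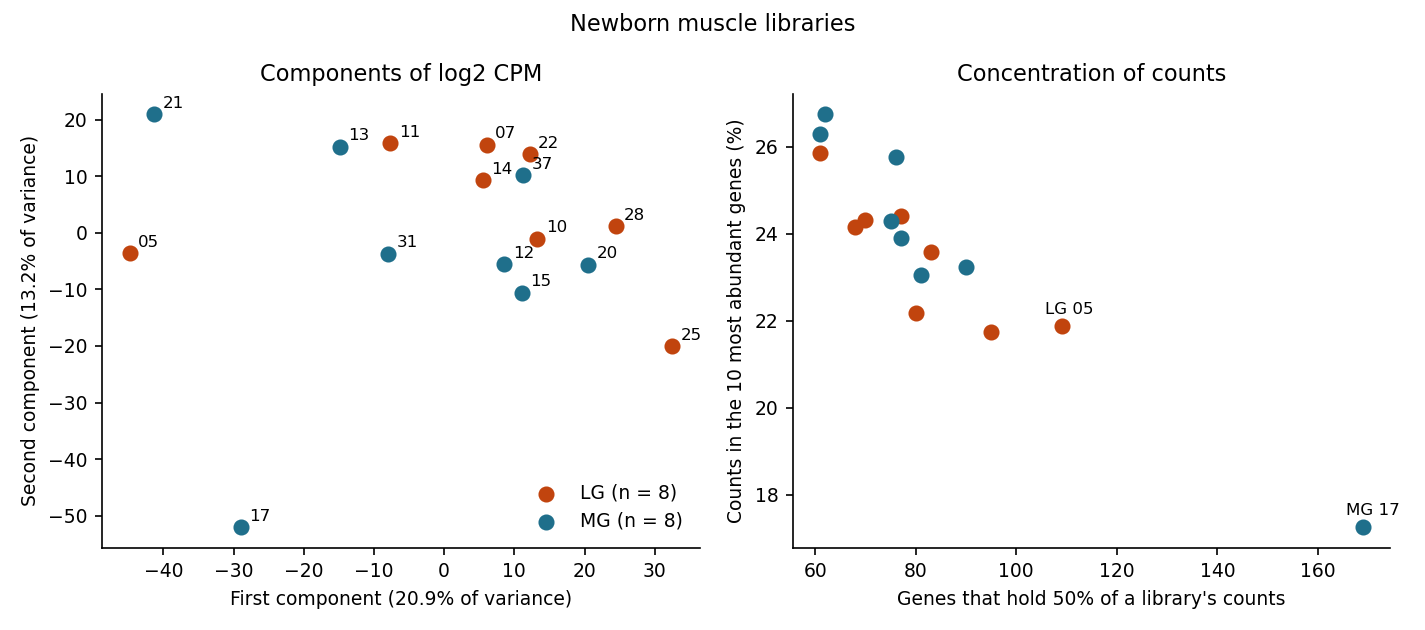
Left, scores of the 16 newborn libraries on the first and second principal components of log2 CPM (no unit; point labels are library numbers). Right, genes that hold 50% of a library's counts against the percent of counts in its 10 most abundant genes. LG and MG libraries intermingle in both panels, and MG 17 lies alone at 169 genes and 17.3%.

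Neither component separated LG from MG. The first component held 20.9% of the variance, and its ends were LG 05 (score -44.8) and MG 21 (-41.3) against LG 25 (32.5), so each group reached toward both ends. The LG mean was 5.19 and the MG mean -5.19 (two-sided exact permutation p = 0.373 over 12870 arrangements). MG 17 was far from the rest on the second component, with a score of -52.0, and the difference of LG and MG on it gave an exact permutation p of 0.445. LG and MG means together held 6.76% of the variance between libraries. An arbitrary division of the libraries into groups of the same size would also hold some share. Whether 6.76% exceeds that share was not tested, so it is not read as variance that goes with maternal gain. Total counts, thinned gene number, genes for 50% of counts and the share of the 10 most abundant genes also showed no difference past the threshold, with exact permutation p between 0.439 and 0.827, and 0.827 for all 7 measures after Benjamini-Hochberg adjustment. Without MG 17 the mean LG minus MG difference in genes for 50% of counts turned from -6 to 5.80, and that in thinned gene number from -88.8 to 39.3.

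How far libraries departed from their own group's mean did not differ detectably by group. The median departure of a library over the genes tested was 0.201 ± 0.0395 log2 units for LG and 0.208 ± 0.042 for MG (SD over 8 libraries each, exact permutation p = 0.734). LG 05 (0.285), MG 21 (0.283) and MG 17 (0.253) departed the most. The median SD per gene was 0.31 log2 CPM in LG and 0.32 in MG, and the SD was larger in MG for 6823 genes and larger in LG for 5662.

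Setting LG against MG at birth addressed whether slow maternal gain early in gestation goes with a different set of muscle transcripts in the newborn calf. No gene passed an adjusted p of 0.05 (0 of 12485 tested, 0%, edgeR's quasi-likelihood test with Benjamini-Hochberg adjustment), and the smallest adjusted p was 0.985. DESeq2 (smallest adjusted p = 0.496) and weighted limma voom (0.887) also called 0. At an unadjusted p under 0.05 there were 515 genes with edgeR (4.12% of those tested), 547 with DESeq2 and 669 with limma voom, each of 12485. About 1 in 20 genes would have such a p where none differs, and edgeR's share with all 16 libraries and the main filter was not above that. Other settings did exceed it. Limma voom's share was above 1 in 20, as were those of 1023 of 12595 genes without LG 05 and 1299 of 21145 without a filter on low counts. Of the 515, 158 were higher in LG (1.27% of genes tested) and 357 lower (2.86%). Fitted differences were small over all genes. The median log2 fold change of LG against MG was -0.01, its quartiles were -0.11 and 0.11, and its 5th and 95th percentiles were -0.38 and 0.35. A fitted difference of more than 1.5-fold was seen in 382 genes (3.06%) and of more than 2-fold in 91, of which 17 were higher and 74 lower in LG. These numbers varied with the method, with 16 higher and 43 lower in DESeq2, 26 and 27 in weighted limma voom, and 36 and 215 in the edgeR model over 31 F1 libraries, which tested more genes.

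**Figure D2:**
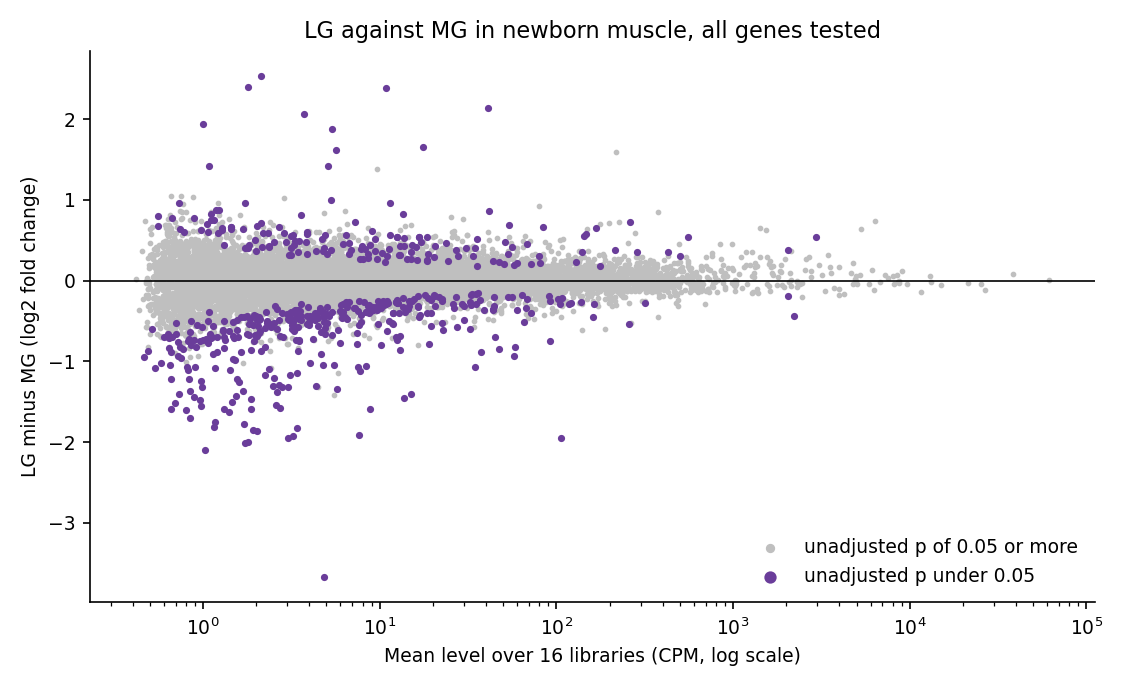
Log2 fold change of LG minus MG for each of the 12485 genes tested, against its mean level over the 16 newborn libraries (CPM, log scale). Purple points are the 515 genes with an unadjusted p under 0.05, of which none passed after adjustment; points below -1 lie mostly at levels under 10 CPM.

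The precision of the comparison depended on the level of the gene. The median standard error of the log2 fold change was 0.33 for the 970 genes under 1 CPM, 0.20 for the 5080 genes at 1 to 10 CPM and 0.12 for the 5276 genes at 10 to 100 CPM. It was 0.12 for the 1045 genes at 100 to 1000 CPM and 0.15 for the 114 genes above 1000 CPM. The most abundant transcripts were thus not the most precisely compared. Under 1 CPM, 55.5% of genes had a 95% interval of the LG/MG ratio that stayed inside 2-fold, against 89.2% at 1 to 10 CPM and 97.4% at 10 to 100 CPM. Inside 1.5-fold were the intervals of 2.47%, 51% and 86.3% of the genes in the same classes. For genes above 10 CPM these libraries therefore limited most LG to MG ratios to within 1.5-fold, and for genes under 1 CPM they rarely did. The intervals cover the spread between libraries in the fitted model.

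Among genes at an unadjusted p under 0.05, those lower in LG outnumbered those higher most at low levels. Such genes were 5.57% of those tested under 1 CPM and 5.61% at 1 to 10 CPM, near the 1 in 20 that arises where no gene differs. At 1 to 10 CPM, 79 genes were higher and 206 lower at an unadjusted p under 0.05, and under 1 CPM 9 were higher and 45 lower. At 10 to 100 CPM, 56 were higher and 93 lower. At 100 to 1000 CPM the numbers were 12 and 11, and above 1000 CPM they were 2 and 2. Differences of more than 2-fold followed the same pattern, with 50 of the 74 lower ones at 1 to 10 CPM and 20 under 1 CPM. None of these genes passed after adjustment.

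**Figure D3:**
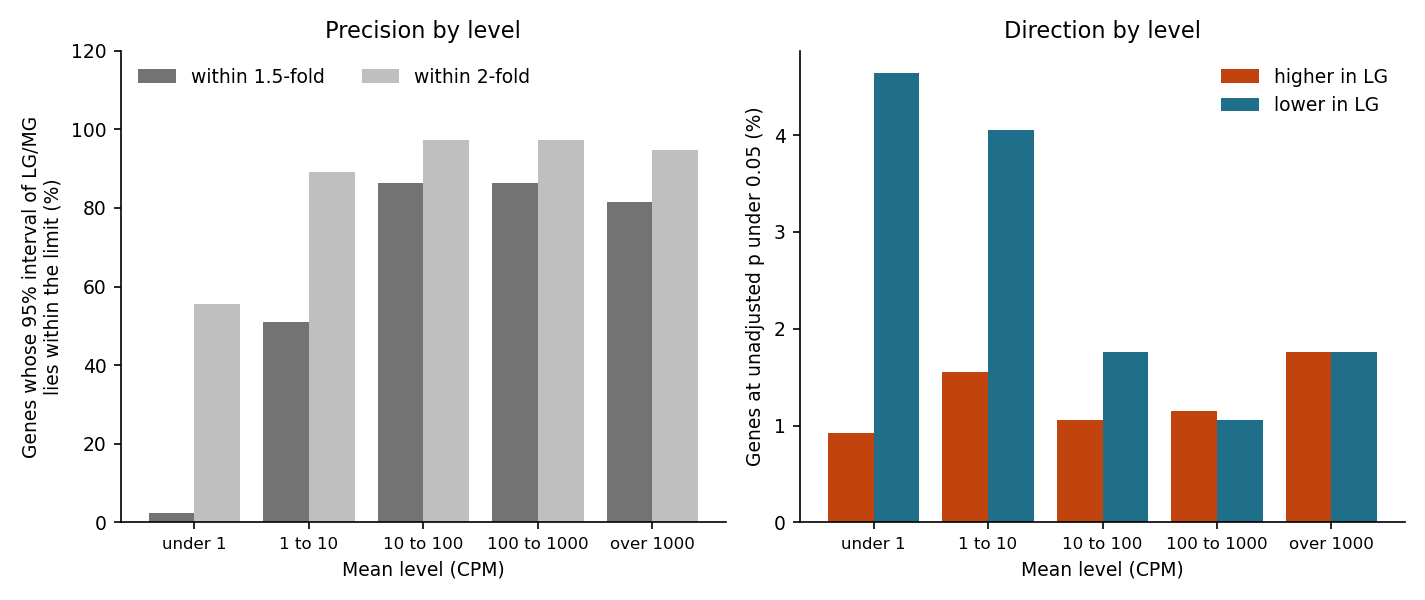
Left, percent of genes in each class of mean level (CPM) whose 95% interval of LG/MG stays inside 1.5-fold (dark) or 2-fold (light). Right, percent of genes with an unadjusted p under 0.05 that were higher (orange) or lower (blue) in LG. Intervals are widest under 1 CPM, where 55.5% stay inside 2-fold, and lower genes outnumber higher ones most at levels under 10 CPM.

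MG 17 held the highest value in many of the genes lower in LG. It was the highest of the 16 libraries in 61 of the 74 genes more than 2-fold lower in LG, and in 162 of the 357 genes lower at an unadjusted p under 0.05. Over all genes tested MG 17 was the highest library in 12.9%. That share is not a matched baseline, because genes chosen as lower in LG tend by that choice to be highest in an MG library. Among the MG libraries MG 20 came next, as the highest in 6 of the 74 and 51 of the 357, and in 7.93% of all genes tested. Without MG 17, the genes more than 2-fold lower in LG numbered 19 in place of 74, and those more than 2-fold higher numbered 18. The genes at an unadjusted p under 0.05 then numbered 378 of 12474 tested, with 134 higher and 244 lower. At 1 to 10 CPM, 76 higher and 133 lower genes were left, so lower genes still outnumbered higher ones. Leaving out LG 05 moved the number the other way. The genes at an unadjusted p under 0.05 then numbered 1023 of 12595 tested, with 418 higher and 605 lower. No gene passed the adjusted threshold with any single library left out, nor without LG 05, MG 17 and MG 21 together. Without these libraries, 683 of 12594 genes had an unadjusted p under 0.05, 288 of them higher.

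**Figure D4:**
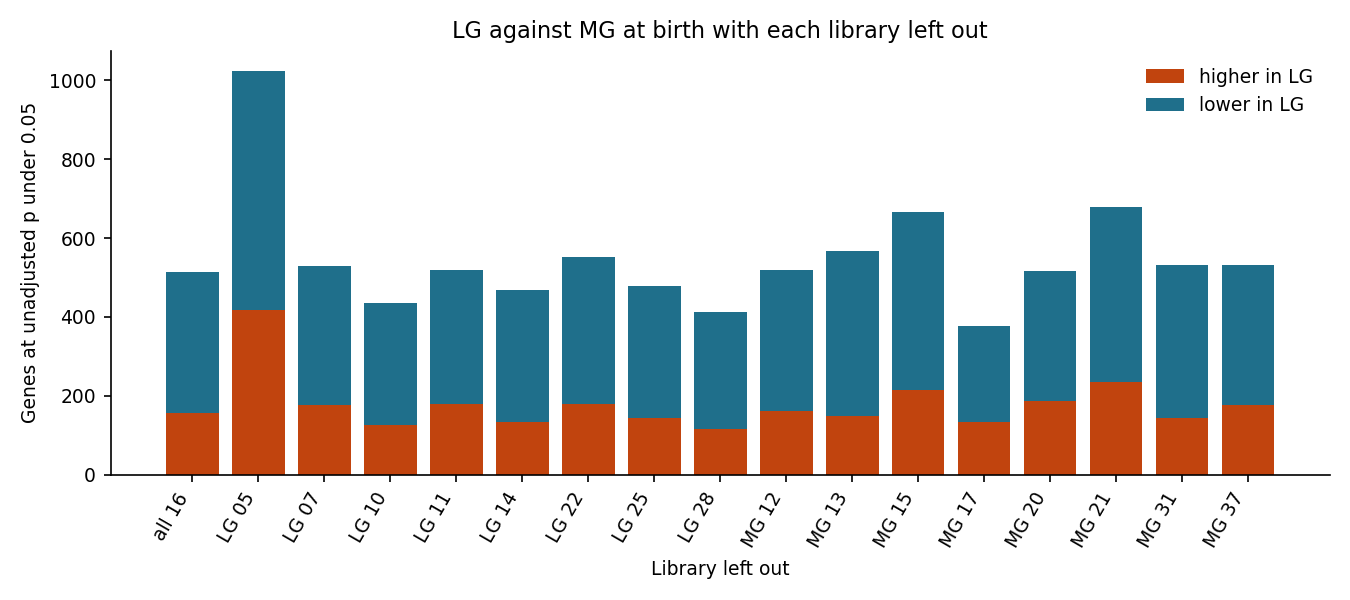
Genes with an unadjusted p under 0.05 for LG against MG at birth (vertical axis, number of genes), with all 16 libraries and with each library left out (horizontal axis); orange is higher and blue lower in LG. Counts run from 378 without MG 17 to 1023 without LG 05, and the lower genes are the majority in each bar.

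Among genes with a mean of at least 1 CPM, the smallest p for a lower level in LG belonged to ENSBTAG00000023472. Its LG libraries ran from 7.97 to 10.9 CPM with a median of 9.16, and its MG libraries from 9.51 to 15.9 CPM with a median of 13.7. Every LG value was below the MG median, and the groups overlapped only through MG 15 and MG 31. The LG mean was 9.32 ± 1.28 CPM and the MG mean 13.2 ± 2.47 CPM (SD over 8 libraries each). The log2 fold change was -0.50 (SE 0.13, 95% interval -0.77 to -0.24, edgeR adjusted p = 0.985).

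ENSBTAG00000015375 was next in that direction. It ran from 14.7 to 19 CPM in LG with a median of 17.1, and from 15.5 to 26.2 CPM in MG with a median of 22.6. All LG values were below the MG median, and MG 20, at 15.5 CPM, was the only MG library inside the LG range. The log2 fold change was -0.41 (SE 0.10, 95% interval -0.62 to -0.19, edgeR adjusted p = 0.985). Both identifiers kept their direction under all 24 alternatives, within -0.56 to -0.45 for ENSBTAG00000023472 and -0.47 to -0.37 for ENSBTAG00000015375, and passed under none. They were chosen for a small p in the same libraries that the alternatives reuse. A kept direction is therefore not separate support, and the 95% intervals are not adjusted for that choice.

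In the other direction, ENSBTAG00000047600 ran from 0.409 to 16.3 CPM in LG with a median of 1.32, and from 0.156 to 1.57 CPM in MG with a median of 0.517. Its lowest value, in MG 15, was a count of 3, which is the detection floor. The mean was 3.64 CPM in LG and 0.626 in MG, so it met the 1 CPM rule for naming through LG. Of the LG libraries, 7 of 8 were above the MG median, and the groups overlapped. The log2 fold change was 2.54 (SE 0.67, edgeR adjusted p = 0.985), and 1.54 without LG 25. ENSBTAG00000000522 ran from 2.48 to 90.7 CPM in LG with a median of 7.60, and from 1.63 to 4.79 CPM in MG with a median of 3.30. Again 7 of 8 LG libraries were above the MG median, and its log2 fold change was 2.39 (SE 0.66, edgeR adjusted p = 0.985). Without LG 25, the highest library for both, this became 1.19. LG 28, with 19.1 CPM, was the second highest for ENSBTAG00000000522, so the LG values were spread widely even apart from LG 25.

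The largest fitted difference of all genes, the lowest point in the plot against level, belonged to ENSBTAG00000040367, which was singled out after its values were seen. It ran from 0.217 to 1.08 CPM in LG with a median of 0.64, and from 0.608 to 67.1 CPM in MG with a median of 0.758. MG 20 alone held the 67.1 CPM, the second highest library was LG 10 at 1.08 CPM, and the other 15 libraries overlapped between the groups. The log2 fold change was -3.68 (SE 1.16, edgeR adjusted p = 0.985), and -0.06 (SE 0.30) without MG 20.

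Complete separation of the groups was rare. The 16 libraries can be divided into 8 and 8 in 12870 ways, so over this many genes a separation can occur without a group difference. In 1 of 12485 genes (0.00801%), all LG libraries lay on one side of all MG libraries, and this gene, ENSBTAG00000014553, was singled out after its values were seen. It ran from 28.1 to 33.6 CPM in LG with a median of 32.6, and from 33.7 to 38.2 CPM in MG with a median of 34.8. The gap between the groups was narrow next to the spread within them, and the log2 fold change was -0.17 (SE 0.07, edgeR adjusted p = 0.985). Without MG 12 no gene separated the groups, and without LG 05 there were 7. Presence and absence did not divide the groups either. Of all 27607 identifiers, and not only the genes tested, 22 had a count in at least 4 LG libraries and in none of MG. None of these had a count in more than 5 LG libraries. The reverse held for 29 identifiers, with at most 6 MG libraries.

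Some genes differed widely between libraries of the same group. In the 7001 genes whose mean log2 CPM was 3 or more, the SD within groups had a median of 0.247 log2 units and a 95th percentile of 0.575, and it was above 1 in 31 genes (0.443%). The 10 genes with the widest spread differed between the lowest and highest library by 17.8-fold to 115-fold. Of these 10, 1 had an unadjusted p under 0.05 for LG against MG.

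ENSBTAG00000039719 had the widest spread, with an SD within groups of 2.05 log2 units. It ran from 1.58 to 183 CPM in LG with a median of 38.7, and from 1.97 to 83.7 CPM in MG with a median of 4.98. LG 14 (183 CPM) and LG 28 (174 CPM) were the highest and LG 05 (1.58 CPM) the lowest, so LG alone covered the whole range. The log2 fold change was 2.14 (SE 0.92, edgeR adjusted p = 0.985), and 3.59 without MG 21, which at 83.7 CPM was far above the other MG libraries. ENSBTAG00000008182 came second, with an SD of 1.64. It ran from 2.44 to 213 CPM in LG with a median of 12.7, and from 2.04 to 41.3 CPM in MG with a median of 21.6. The LG median was below the MG median while the fitted log2 fold change was 0.76 (SE 0.77, edgeR adjusted p = 0.985). Without LG 22, which had 213 CPM, the value was -0.88.

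**Figure D5:**
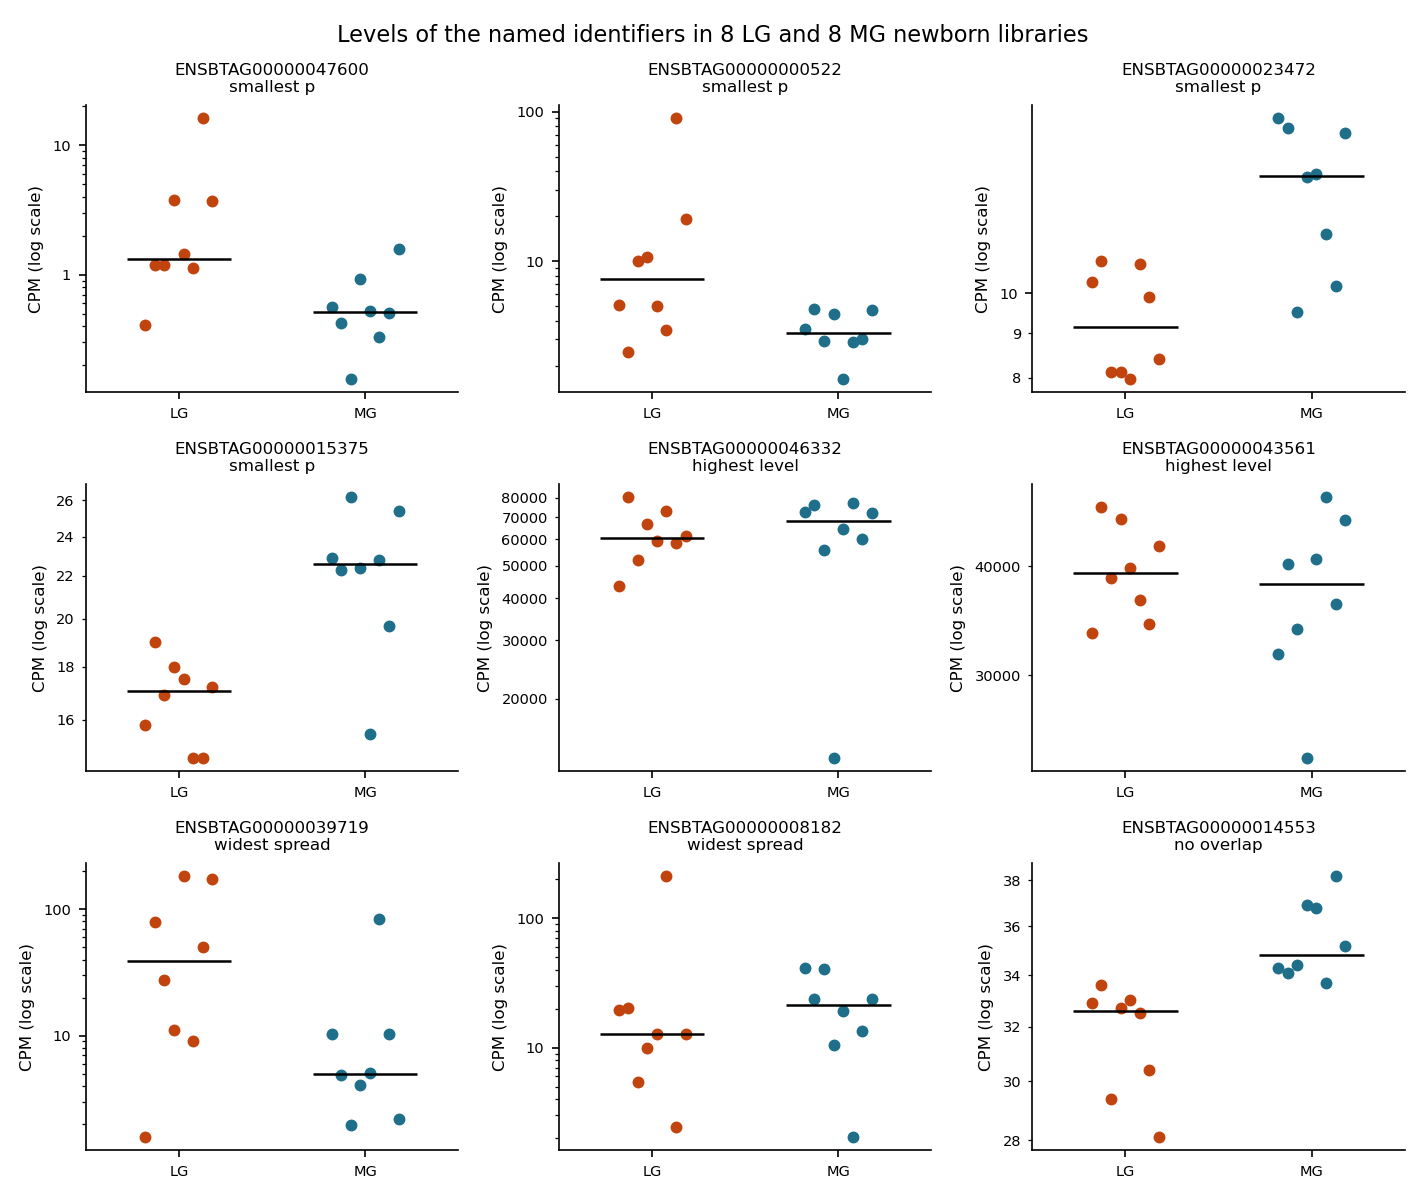
Level of the named identifiers other than ENSBTAG00000040367 (CPM, log scale) in the 8 LG (orange) and 8 MG (blue) newborn libraries; each point is 1 library, bars are medians, and panel titles give why the identifier was named. The groups overlap in every panel except that of ENSBTAG00000014553, where LG ends at 33.6 CPM and MG begins at 33.7 CPM.

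Whether the LG to MG difference in newborn muscle differed from that in grown muscle was tested against F1 heifers at slaughter, for which the labels give 8 LG and 7 MG libraries. The protocol text gives 7 LG and 8 MG there, and the labels were followed. In 1 edgeR model over the 31 F1 libraries, the difference of the LG minus MG effects passed for 0 of 13369 genes (0%), and 439 genes (3.28%) had an unadjusted p under 0.05. Without MG 17 of the newborns these were 262 of 13299. The tables of the stages were deposited apart, so age at sampling and any difference in collection or library preparation between them cannot be told apart.

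ENSBTAG00000023472 averaged 5.58 ± 0.868 CPM in LG (SD, n = 8) and 5.45 ± 1.03 in MG (SD, n = 7) at slaughter. The newborn effect minus the slaughter effect was a log2 value of -0.54 with an SE of 0.19 (edgeR adjusted p = 1). ENSBTAG00000015375 averaged 22.3 ± 4.70 CPM in LG and 19.9 ± 7.49 in MG at slaughter, so the LG mean was the higher one there. The difference of effects was -0.56 (SE 0.23, edgeR adjusted p = 1). It was 1.91 (SE 0.79) for ENSBTAG00000047600 and 1.76 (SE 1.19) for ENSBTAG00000000522, and edgeR's adjusted p was 1 for each. At slaughter, ENSBTAG00000000522 again had a wide range, from 2.63 to 179 CPM in LG and from 0.335 to 56.5 CPM in MG. ENSBTAG00000014553 averaged 33.6 ± 4.03 CPM in LG and 34.0 ± 3.70 in MG at slaughter, and the groups overlapped. All of these identifiers were named for their newborn values, which also enter the difference of effects. That choice tends to enlarge the newborn effect, so no change with age is read from these values.

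No difference between the ages was detected in how far single libraries departed from their group mean. Over the 11986 genes tested at each, it averaged 0.199 ± 0.0392 log2 units in the 16 newborn libraries and 0.196 ± 0.0404 in the 15 slaughter libraries (SD), with a two-sided permutation p of 0.822.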

How the data were processed

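Per the labels' protocols, libraries were non-directional and sequenced as 150 bp read pairs. The files the authors deposited hold whole-number counts per gene, 1 table per stage. The submitters' processing notes name STAR 2.7.3a, edgeR 3.24.3, FastQC 0.11.8 and MultiQC 1.9. Which build, annotation and counter were used is not given in the sources used here. Without strand marking, a gene and an overlapping antisense gene share reads that cannot be separated. Counting settings for reads that map to near-identical genes are likewise not known, so levels of such genes are uncertain.

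The 16 birth columns and, for the test against grown heifers, the 15 slaughter columns were used, and 0 columns of these tables were left unused. Neither the birth nor the slaughter header has a cell for identifiers. In both, the first name was read as heading the first column of values. Fetal libraries were not used here. In R 4.3.3 with edgeR 4.0.16, the filter was filterByExpr, the scaling TMM and the test the robust quasi-likelihood test across all genes, with Benjamini-Hochberg adjustment. Standard errors and 95% intervals were derived from its F statistics. CPM uses TMM-scaled library sizes, and log2 CPM adds a prior count of 1. Values per library were tested with exact permutation tests, two-sided, or with 100000 resamples for newborns against grown heifers. Alternatives were DESeq2 1.42.0, limma 3.58.1 voom, 1 surrogate variable from sva 3.50.0, other filters, scaling and thresholds, a model over 31 libraries and leaving out each library. These edgeR fits were checked with simulated data. The 56 pairs of libraries within a group differed, with a chi-square per degree of freedom of 25.2 or more, and none was treated as a repeat of another.

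Identifiers named are the 2 with the smallest p in each direction at a mean of at least 1 CPM, the 2 with the highest mean and the 2 with the widest spread within groups at a mean log2 CPM of at least 3. This replaces a rule that needed gene symbols. The pathway lists, cell type markers and sex check were not run for the same reason. The comparison, lists and rules were chosen with earlier results of these data known.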

Additional observations from a re-analysis of the deposited data

Results flagged for a closer look

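In 34 groups of 8 values, 10 held a single library far from the rest of its group. Chance flags about 1 in 20 groups, but that rate does not apply here: most of the identifiers were named for a small p, a wide spread or a large difference, and measures of 1 library are related. MG 17 accounted for 5 of them, with 17223 genes detected after thinning, 169 genes for 50% of counts, 17.3% of counts in the 10 most abundant genes, a second component score of -52.0 and 13340 CPM of ENSBTAG00000046332. LG 25 was one for ENSBTAG00000047600, at 16.3 CPM, and for ENSBTAG00000000522, at 90.7 CPM. MG 21 had 83.7 CPM of ENSBTAG00000039719, LG 22 had 213 CPM of ENSBTAG00000008182, and MG 20 had 67.1 CPM of ENSBTAG00000040367.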

How the results depend on the processing

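The count of 0 genes past the adjusted threshold held for LG against MG at birth under every alternative with an adjusted p, 0.10 included, and for newborn against grown effects. Requiring an unadjusted p under 0.01 and a log2 fold change beyond 0.5 in size gave 71 of 12485 genes. Without a filter on low counts, more genes were tested. Of these, 1299 of 21145 had an unadjusted p under 0.05 at birth and 1102 of 22028 in the newborn against grown test. Leaving out single libraries gave 378 of 12474 to 1023 of 12595 genes at birth. In the newborn against grown test it gave 262 of 13299 to 562 of 13339. Between 300 and 439 of the 515 genes recurred when 1 of 16 libraries was left out. Groups without overlap numbered 0 to 7 genes with 1 library left out and 13 without the 3 libraries farthest from their group, an alternative chosen after seeing the data. Fewer libraries make separation easier by construction. DESeq2 ran with its default handling of outlying counts, so its values for the next 2 identifiers need not be independent of leaving out 1 outlying library. ENSBTAG00000008182 turned to -0.81 with DESeq2, -0.56 with limma voom and -0.88 (without LG 22) to 0.95 with libraries left out. ENSBTAG00000040367 was at -0.05 with DESeq2, -0.99 with limma voom and -3.86 to -0.06 (without MG 20) with libraries left out. It and ENSBTAG00000047600 could not be given under the stricter filter, where they were not tested. ENSBTAG00000046332, near 0, turned to -0.028 with a surrogate variable, -0.052 without the 3 libraries and -0.143 to 0.069 with 1 left out. Of the library measures, the LG minus MG difference ran from -143.6 to 39.3 thinned genes, -10.1 to 5.80 genes for 50% of counts, -1.24 to 0.12 percentage points in the 10 most abundant genes and -0.0191 to 0.0037 log2 units of departure. Of 350 values recomputed for named identifiers and library measures, 335 kept their direction, and no named identifier passed the adjusted threshold. The named identifiers were chosen in these same libraries, so a kept direction is not separate support for them. LG and MG share 0 library numbers at birth, so no pairing exists within it. Between birth and slaughter, 6 numbers recur; 2 of 6 had a correlation of deviations over 0.1 (range 0.022 to 0.293), and 2 matched their own number best. With the number as a replicate block, 0 of 13369 genes passed and 310 had an unadjusted p under 0.05. Standard errors were largest for genes under 1 CPM (median 0.33 on the log2 scale), and depth was not varied.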
